A study of Mus musculus with 12 samples.

Results

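DNA methylation was followed at 10 mouse genes that encode transcription factors of the pluripotency network: Pou5f1, Sox2, Nanog, Zfp42, Esrrb, Klf2, Klf4, Klf5, Tfcp2l1 and Tbx3. The measurements came from reduced representation bisulfite sequencing (RRBS), in which the enzyme MspI cuts DNA at CCGG and bisulfite then separates methylated from unmethylated cytosines, so that CpG-rich sequence is sampled best. Every row whose identifier was the Ensembl gene identifier of a member was taken, for the promoter, 5′ untranslated region (UTR), exons, introns and 3′ UTR. Of the 30073 gene identifiers with a row, 9 belonged to members, and these gave 36 of the 176831 features. A promoter level was found for 9 of the 10 members, namely Pou5f1, Sox2, Zfp42, Esrrb, Klf2, Klf4, Klf5, Tfcp2l1 and Tbx3. No row was found for Nanog, which was therefore not analysed here beyond its sequence. Of the 36 rows, 35 had a level in all 12 libraries and entered every test, while the 5′ UTR of Sox2 was listed in 3 libraries, at 0 in each.

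The 12 libraries formed 6 groups of 2. ESCs were female embryonic stem cells and pESCs were parthenogenetic embryonic stem cells, made from activated oocytes without a paternal genome. Both came, according to the study's methods, from mice that carry a ubiquitous GFP transgene driven by an actin promoter, on the strain labelled C57BL6. The lines were maintained on feeder cells with serum and LIF. For PGCLC induction they were first kept for some passages in a medium with kinase inhibitors and LIF. The methods do not say in which medium the stem cells of the ESC and pESC libraries were grown. E9.5 PGCs and E12.5 PGCs were primordial germ cells, the precursors of eggs and sperm, taken from female embryos at embryonic day 9.5 and 12.5 and sorted by CD61 and SSEA1 or enriched with SSEA1 beads. ESC-PGCLCs and pESC-PGCLCs were primordial germ cell-like cells induced from the stem cells through epiblast-like cells with BMP4, LIF, SCF and EGF, and sorted for CD61 and SSEA1. The epiblast-like intermediate was not analysed here. The study describes the paired libraries of each group as biological replicates, but the sources used here do not say whether they came from separate lines, cultures or embryos, and p-values measure only the spread between these libraries.

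Pluripotency factors hold embryonic stem cells in a state from which all tissues can form. Pou5f1 (Oct4), Sox2 and Nanog form the core of the network, and Esrrb, Klf2, Klf4, Klf5, Tfcp2l1, Tbx3 and Zfp42 (Rex1) belong to the naive part, which LIF and kinase inhibition maintain. Primordial germ cells keep or regain several of these factors, and they pass through a genome-wide loss of DNA methylation while they migrate to the gonad. Promoters rich in CpG are as a rule free of methylation in all tissues, whereas promoters poor in CpG can gain and lose it.

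A level is the percentage of CG calls within a feature that were methylated, and a difference between levels is given in percentage points. Differences were tested with limma on the log2 odds of the level (with an offset of 0.01), and p-values were adjusted by the Benjamini-Hochberg method over all features tested. A difference was called when its adjusted p was below 0.05 and its mean difference was at least 10 points. Read numbers behind each level were not given, so the depth is unknown. An intermediate level in bulk DNA can come from a share of the cells or from partial methylation in each cell, which cannot be told apart here, and the identity of the sorted cells could not be checked against marker expression in methylation data. Libraries held 144375 to 166476 features. The ESC libraries were the least alike of the replicate pairs, with a mean absolute difference of 6.80 points over shared features against 2.58 to 3.77 points in the other groups. The pESC label was checked at the imprinted promoters of Snrpn, Mest, Sgce, Peg10 and Zrsr1, which were 33.4 to 43.4 points higher in pESCs than in ESCs.

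The sequences just upstream of the start sites show the contrast in CpG content between the members. They are the 250 bases before a RefSeq start on build GRCm38.p6, written 5′ to 3′ on the gene's own strand with each CpG in capitals. They were chosen for the promoter with the highest level (Zfp42), the next highest (Pou5f1, Esrrb), a promoter low in every library (Klf4) and the member without a row (Nanog). Pou5f1, Esrrb and Nanog each have a second RefSeq window further downstream, which is not printed. These second windows hold 6, 3 and 2 CpGs, with 0, 1 and 0 CCGG sites. RefSeq promoter sequences were matched for 8 of the 10 members.
Zfp42, chr8:43307010-43307259, minus strand: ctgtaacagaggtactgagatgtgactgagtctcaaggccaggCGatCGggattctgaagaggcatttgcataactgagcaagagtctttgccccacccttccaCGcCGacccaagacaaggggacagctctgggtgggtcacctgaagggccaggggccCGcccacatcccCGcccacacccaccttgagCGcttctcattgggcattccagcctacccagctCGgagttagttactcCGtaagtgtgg
Pou5f1, chr17:35505782-35506031, plus strand: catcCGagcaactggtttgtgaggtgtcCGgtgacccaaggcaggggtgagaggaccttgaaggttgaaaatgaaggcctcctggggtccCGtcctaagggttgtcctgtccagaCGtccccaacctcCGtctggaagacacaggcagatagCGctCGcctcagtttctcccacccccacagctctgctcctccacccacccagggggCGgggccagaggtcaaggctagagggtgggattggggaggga
Esrrb, chr12:86360867-86361116, plus strand: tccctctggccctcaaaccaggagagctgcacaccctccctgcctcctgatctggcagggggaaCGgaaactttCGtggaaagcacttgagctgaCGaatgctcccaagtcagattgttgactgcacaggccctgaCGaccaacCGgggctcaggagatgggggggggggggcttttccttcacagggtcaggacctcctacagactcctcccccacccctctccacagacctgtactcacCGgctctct
Klf4, chr4:55532476-55532725, minus strand: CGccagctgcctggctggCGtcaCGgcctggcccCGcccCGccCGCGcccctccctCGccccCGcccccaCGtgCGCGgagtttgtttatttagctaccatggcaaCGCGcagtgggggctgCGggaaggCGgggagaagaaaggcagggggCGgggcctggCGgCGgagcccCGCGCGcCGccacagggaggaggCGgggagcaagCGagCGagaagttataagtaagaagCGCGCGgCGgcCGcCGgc
Nanog, chr6:122707239-122707488, plus strand: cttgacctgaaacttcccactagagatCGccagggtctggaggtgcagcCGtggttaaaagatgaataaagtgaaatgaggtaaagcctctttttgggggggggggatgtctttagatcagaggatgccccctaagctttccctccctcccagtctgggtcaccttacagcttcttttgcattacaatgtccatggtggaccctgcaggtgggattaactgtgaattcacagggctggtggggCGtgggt
These windows hold 9 CpGs for Zfp42, 8 for Pou5f1, 6 for Esrrb, 32 for Klf4 and 3 for Nanog. A CpG (CG, which reads the same on both strands) was present in 92.1% of the 32851 RefSeq promoters of this length, with a median of 6, and 95.4% of them had fewer than Klf4. The MspI site CCGG, which also reads the same on both strands, was present in 47.1% of these promoters, with no match for Zfp42 and Nanog, 1 for Pou5f1 and Klf4 and 2 for Esrrb. In a wider window of 2000 bases upstream of the GENCODE start, Nanog again had no CCGG, whereas the 9 members with a promoter level had 3 to 14. The bounds of the authors' promoters were not given in the sources used here, so it is not known which of these sites a promoter level covers.

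Among the 9 promoters, Zfp42 and Pou5f1 were the ones whose group means spanned at least 10 points, and both had the same order of extremes: lowest in the stem cells and highest in E9.5 PGCs. Zfp42 encodes a zinc finger protein long used as a marker of naive stem cells, and its gene lies at chr8:43295063-43306980 on the minus strand. The Zfp42 promoter was methylated at 1.86% and 2.58% in the ESC libraries and at 1.22% and 1.74% in the pESC libraries. In germ cells it stood at 65.4% and 63.8% at E9.5 and at 30.7% and 30.9% at E12.5. The levels were 41.1% and 37.4% in ESC-PGCLCs, with 27.7% and 30.2% in pESC-PGCLCs. Every germ cell and PGCLC library was thus far above every stem cell library, and the E9.5 libraries did not overlap with any other. Pou5f1, the gene for the central factor of the network, lies at chr17:35506018-35510772 on the plus strand. Its promoter was methylated at 2.67% and 2.93% in ESCs and at 2.38% and 3.57% in pESCs. At E9.5 the Pou5f1 promoter reached 24.7% in both libraries (24.75% and 24.67%), and at E12.5 it stood at 15.7% and 13.4%. PGCLC levels were 13.7% and 16.1% from ESCs and 11.98% and 11.88% from pESCs. Pou5f1 therefore followed Zfp42 in kind, with a smaller range, and its E12.5 PGC and ESC-PGCLC libraries overlapped.

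Esrrb, which encodes an orphan nuclear receptor, had the third highest promoter level. The Esrrb promoter stood at 7.25% and 6.18% in ESCs, 10.03% and 7.81% in pESCs, 14.4% and 14.7% in E9.5 PGCs, 10.5% and 9.53% in E12.5 PGCs, 11.1% and 9.25% in ESC-PGCLCs, with 9.11% and 7.81% in pESC-PGCLCs. Its group means spanned 7.83 points, and it was not called in any comparison because no difference reached 10 points. The other 6 promoters were low in all 12 libraries. Levels ranged from 1.18% to 2.70% for Sox2, from 1.01% to 2.63% for Klf2, from 1.44% to 3.08% for Klf4, from 1.39% to 2.46% for Klf5, from 0.426% to 4.58% for Tfcp2l1 and from 2.06% to 4.03% for Tbx3. The group means of these 6 spanned 0.427 to 3.23 points, with Tfcp2l1 at the upper end. Its promoter was at 1.33% and 1.36% in ESCs and at 4.38% and 4.58% in ESC-PGCLCs, a difference of 3.13 points that passed the p threshold alone (limma, adjusted p = 0.0467).

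**Figure D1:**
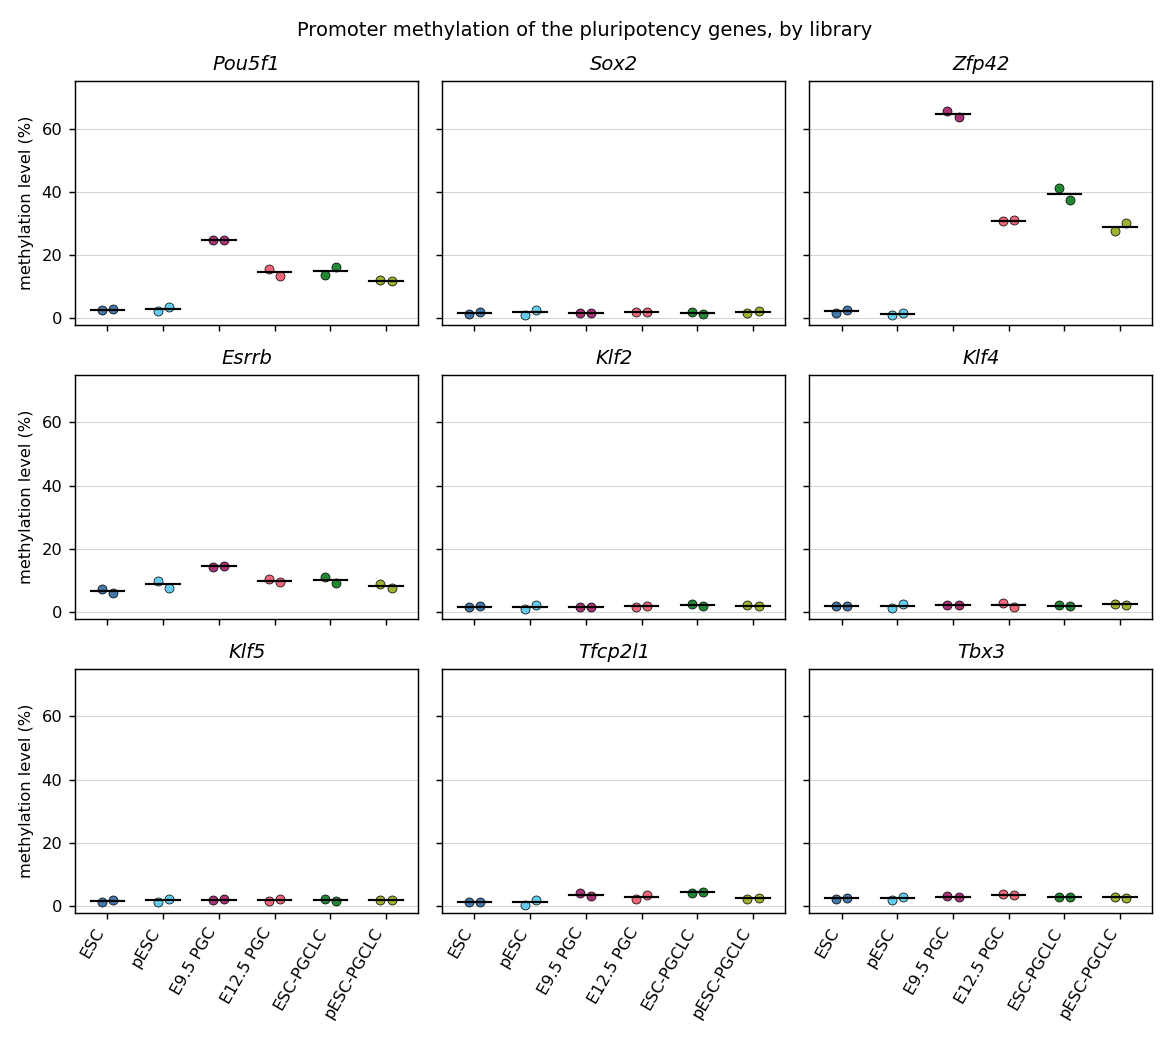
Promoter methylation level in percent (vertical axis) in each of the 6 groups (horizontal axis) for the 9 members with a promoter level; each point is 1 library and each bar the mean of 2. Zfp42 spans 1.22% to 65.4% and Pou5f1 2.38% to 24.7%, Esrrb stays between 6.18% and 14.7%, and the other 6 promoters stay at or below 4.58%.

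CpG content was set beside the levels for members and for all promoters. The ratio of observed to expected CpG in the 250 bases before the GENCODE start was 0.513 for Zfp42, 0.371 for Pou5f1 and 0.264 for Esrrb, and it was at least 0.609 for the 6 members with low promoters. Of all promoters with a level in the 12 libraries, 8772 had a ratio under 0.6, and 62.3% of these were methylated at 10% or more in E9.5 PGCs. The corresponding share was 25.0% among the 9661 promoters with a ratio of at least 0.6. The 3 members under the ratio limit were all above 10% at E9.5 and the 6 members over it were all below, which is given as a description of 9 promoters without a test. This split depended on the window of 250 bases. Over the 2000 bases upstream, the low promoters of Klf2 (0.406) and Tfcp2l1 (0.213) were under 0.6 too, beside Zfp42 (0.375), Pou5f1 (0.198) and Esrrb (0.258). Of the CpG-poor promoters with a mean level below 5% in ESCs, as for Zfp42 and Pou5f1, 15.6% were at 10% or more in E9.5 PGCs. Among promoters with a ratio of at least 0.6 and such an ESC level, the share was 8.18%. Against all 18456 promoters, the E9.5 PGC minus ESC difference of Zfp42 was among the largest, with 1.36% of promoters showing a larger one. For Pou5f1 17.9% of promoters showed a larger difference.

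Promoters with the profile most like these were found by Pearson's correlation over the 12 library levels, given as a description because the libraries share groups. The profiles nearest to the Zfp42 promoter were those of Rpl30-ps6 (r = 0.998) and Gm18943 (r = 0.997), both processed pseudogenes, and Ccdc141 (r = 0.996). Their E9.5 PGC means were 40.7%, 23.9% and 57.2% and their ESC means 1.65%, 2.86% and 3.16%. For the Pou5f1 promoter the nearest were Gm36210 and Gm11434 (r = 0.996 each), the latter a processed pseudogene, and 2700062C07Rik, whose profile also gave r = 0.996. Zfp42 and Pou5f1 correlated with each other at r = 0.987.

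Beyond the promoter, the gene parts of 6 members were methylated in germ cells while those of Sox2, Klf4 and Tbx3 stayed low. Sox2, the partner of Pou5f1 on DNA, lay between 1.18% and 2.70% in its promoter and exons in all 12 libraries. Klf4, a zinc finger factor used in reprogramming, had all of its 4 rows between 1.44% and 3.48%. Tbx3, a T-box factor, had its largest change in its exons, which were at 1.45% and 1.97% in ESCs and at 6.12% and 6.11% in E9.5 PGCs. No row of these 3 genes was called in any comparison. Sox2 is overlapped by Sox2ot and Tbx3 by Tbx3os1, and levels were taken over the DNA regardless of which gene it belongs to.

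**Figure D2:**
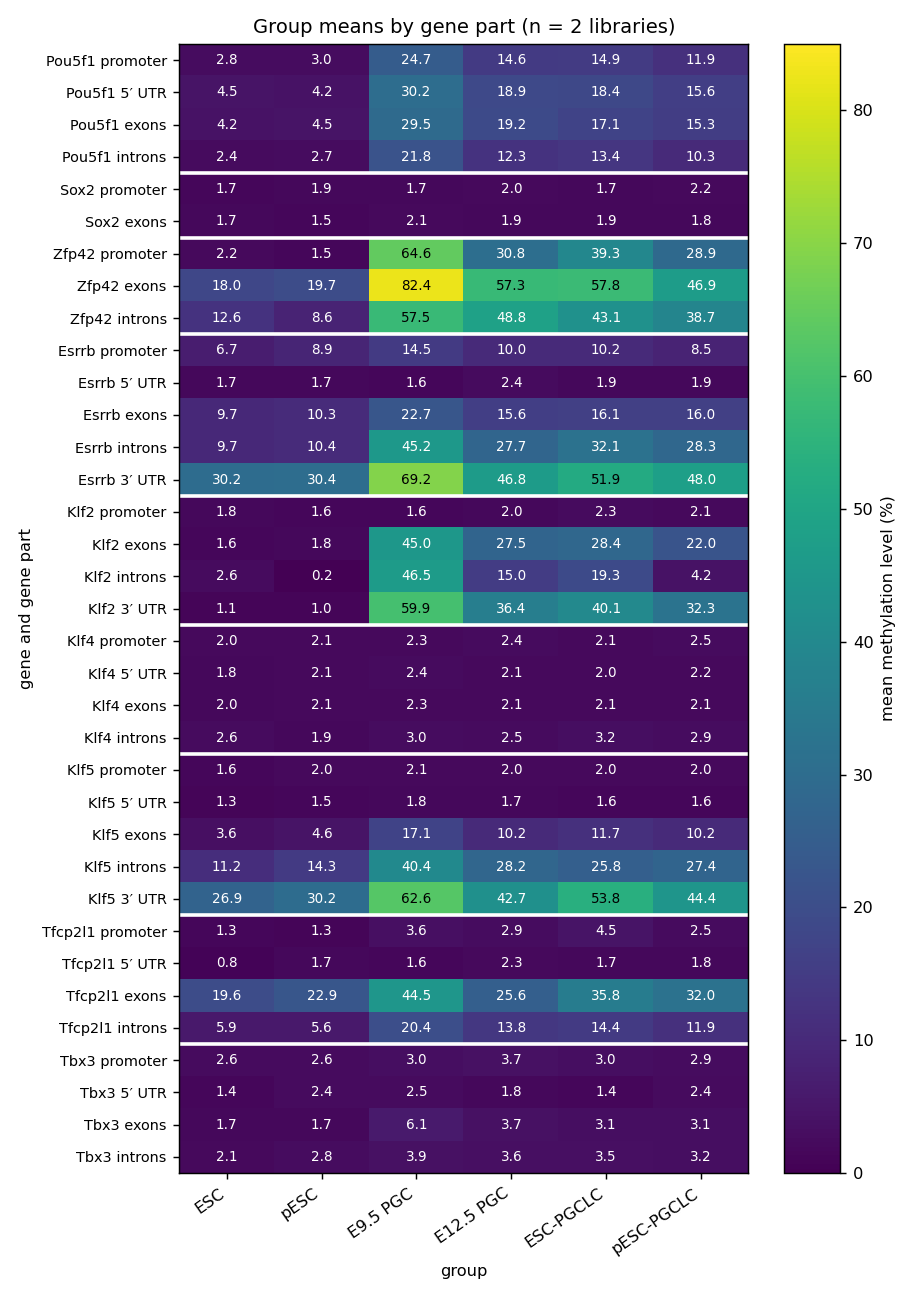
Mean methylation level in percent (colour and printed value, n = 2 libraries) of the 35 member rows with a level in all 12 libraries; rows are gene parts, columns the 6 groups. E9.5 PGCs have the highest mean in Zfp42, Pou5f1, Esrrb introns and 3′ UTR, Klf2 exons and 3′ UTR, Klf5 introns and 3′ UTR and Tfcp2l1 exons, while the rows of Sox2 and Klf4 have means of at most 3.24%.

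Klf2, a zinc finger factor that LIF and kinase inhibition sustain in naive cells, showed the sharpest difference within one short gene (chr8:72319033-72321656, plus strand). Its promoter was at 1.67% and 1.56% in E9.5 PGCs, not apart from the stem cells at 1.01% to 2.21%. The exons of Klf2 were at 1.37% and 1.78% in ESCs, 1.38% and 2.22% in pESCs, 45.2% and 44.7% in E9.5 PGCs, 27.4% and 27.6% in E12.5 PGCs, 28.5% and 28.3% in ESC-PGCLCs, with 21.8% and 22.3% in pESC-PGCLCs. The 3′ UTR went further, from 1.12% and 1.11% in ESCs and 0.972% and 1.12% in pESCs to 59.86% and 59.98% in E9.5 PGCs. It stood at 35.7% and 37.2% in E12.5 PGCs, 38.9% and 41.4% in ESC-PGCLCs, with 32.7% and 32.0% in pESC-PGCLCs. The SD between replicates of these rows was at most 1.76 points in any group, and stem cell libraries were separated from all others by at least 19.6 points. The introns of Klf2 could not be read in the same way, since the E9.5 libraries stood at 23.1% and 70.0% and the E12.5 libraries at 30% and 0%.

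The CpG island features gave the same picture at Klf2 by position. The island across the Klf2 start site (chr8:72318723-72320158) was at 1.35% to 3.10% in all 12 libraries. Its shore, the 2 kb next to the island, runs from 1.1 to 3.1 kb downstream of the start (chr8:72320158-72322159) and therefore covers the end of the gene. This shore was at 1.06% to 1.71% in the stem cell libraries and at 56.9% and 57.5% in E9.5 PGCs, then 34.0% and 36.7% in E12.5 PGCs, 35.6% and 38.7% in ESC-PGCLCs, with 30.2% and 29.0% in pESC-PGCLCs. The difference between E9.5 PGCs and ESCs was 55.6 points (limma, adjusted p = 1.28e-07). Shore and 3′ UTR share sequence and are not independent measurements.

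Esrrb (chr12:86361117-86521628) changed most far inside the gene. Its introns were at 9.30% and 10.01% in ESCs, 9.58% and 11.3% in pESCs, 46.3% and 44.1% in E9.5 PGCs, 27.4% and 27.9% in E12.5 PGCs, 33.1% and 31.0% in ESC-PGCLCs, with 28.2% and 28.5% in pESC-PGCLCs. The 3′ UTR was already methylated in stem cells, at 37.7% and 22.7% in ESCs and 30.7% and 30.05% in pESCs, and reached 71.2% and 67.1% in E9.5 PGCs. It then stood at 48.8% and 44.7% in E12.5 PGCs, 53.8% and 50.0% in ESC-PGCLCs, with 51.1% and 44.9% in pESC-PGCLCs, so that pESC-PGCLCs overlapped both other groups. Esrrb exons had ESC levels of 10.3% and 9.08% and pESC levels of 11.5% and 9.16%. They stood at 25.1% and 20.4% in E9.5 PGCs, at 17.2% and 14.1% in E12.5 PGCs, and at 14.3% to 18.0% in the 4 PGCLC libraries. Its 5′ UTR stayed between 1.05% and 2.68%.

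A shore 107 kb downstream of the annotated Esrrb start, at chr12:86468029-86470029, had the largest range of any island or shore near the members. Its levels were 5.90% and 6.59% in ESCs, 5.32% and 6.44% in pESCs and 69.2% and 74.6% in E9.5 PGCs. They fell to 58.7% and 54.0% in E12.5 PGCs, 40.9% and 38.8% in ESC-PGCLCs, with 28.9% and 27.6% in pESC-PGCLCs, with no overlap between these groups. This was the one feature in or beside a member that was called lower in ESC-PGCLCs than in E12.5 PGCs, by 16.5 points (adjusted p = 0.00811), and it was also lower in pESC-PGCLCs, by 28.1 points (adjusted p = 0.0103, limma). An island 60.5 to 61.8 kb inside Esrrb (chr12:86421660-86422902) stayed between 1.91% and 3.33% in all libraries and its shores stayed between 4.49% and 9.89%. A second RefSeq promoter window of Esrrb (chr12:86421394-86421643) ends just before this island, so the island lies at a second annotated start. Islands over the start sites of Sox2, Klf4, Klf5, Tfcp2l1 and Tbx3 lay between 1.2% and 2.78%. Within Tbx3, an island 9.7 to 10.3 kb from the start was at 1.60% to 1.74% in the stem cell libraries and at 9.34% and 10.1% in E9.5 PGCs, and of its shores the one at chr5:119681017-119683018 was called, 12.8 points higher in E9.5 PGCs than in ESCs (limma, adjusted p = 0.00127). No island of the files was found at Zfp42, Pou5f1 or Nanog.

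**Figure D3:**
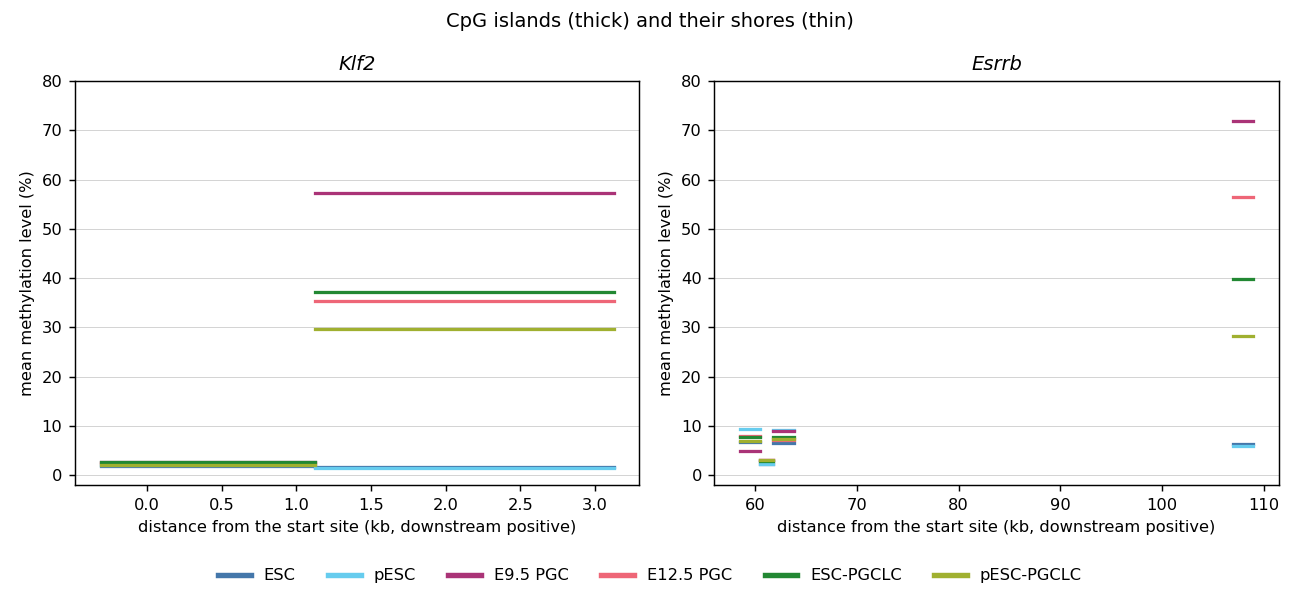
Mean methylation level in percent (n = 2 libraries) of CpG islands and shores against distance from the annotated start in kb, for Klf2 and Esrrb. Each line spans 1 feature and colours mark the 6 groups. Islands and shores are drawn at the same line width, despite the title. The islands run from -0.31 to 1.125 kb at Klf2 and from 60.543 to 61.785 kb at Esrrb, and the other lines are shores. The Klf2 start-site island lies at or below 2.63% in all groups while the adjoining shore reaches 57.2% in E9.5 PGCs, and the shore 107 kb inside Esrrb reaches 71.9%.

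Zfp42 and Pou5f1 were methylated in germ cells in every gene part with a level in all 12 libraries. Zfp42 exons were at 24.9% and 11.2% in ESCs, 24.3% and 15.1% in pESCs, 83.0% and 81.8% in E9.5 PGCs, 54.8% and 59.8% in E12.5 PGCs, 57.0% and 58.5% in ESC-PGCLCs, with 47.7% and 46.1% in pESC-PGCLCs. Its introns were at 10.4% and 14.8% in ESCs, 6.12% and 11.1% in pESCs, 55.3% and 59.7% in E9.5 PGCs, 50.0% and 47.5% in E12.5 PGCs, 42.6% and 43.6% in ESC-PGCLCs, with 38.8% and 38.7% in pESC-PGCLCs. The stem cell libraries were well below the others in both rows, although the exons varied between replicates by 9.68 points in ESCs and 6.48 points in pESCs (SD, n = 2). Pou5f1 exons were at 3.49% and 4.93% in ESCs, 3.71% and 5.34% in pESCs, 30.3% and 28.8% in E9.5 PGCs, 20.2% and 18.2% in E12.5 PGCs, 16.1% and 18.0% in ESC-PGCLCs, with 14.8% and 15.8% in pESC-PGCLCs. Its 5′ UTR was at 3.80% and 5.26% in ESCs, 3.83% and 4.61% in pESCs, 30% and 30.4% in E9.5 PGCs, 20.7% and 17.1% in E12.5 PGCs, 16.7% and 20.1% in ESC-PGCLCs, with 15.9% and 15.4% in pESC-PGCLCs. The introns of Pou5f1 were at 2.52% and 2.36% in ESCs, 2.31% and 3.11% in pESCs, 21.7% and 21.9% in E9.5 PGCs, 13.3% and 11.4% in E12.5 PGCs, 12.3% and 14.6% in ESC-PGCLCs, with 10.6% and 9.95% in pESC-PGCLCs. The 4 Pou5f1 rows thus moved side by side. The 5′ UTR and exon rows share CpGs, since a UTR is also exon sequence. Whether the promoter and intron rows share CpGs with them is not known, so the 4 rows are not taken as independent. An antisense gene, Gm19553, overlaps Pou5f1.

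Klf5 and Tfcp2l1 combined a low start region with methylation further in. Klf5, which encodes another factor of the family, had exons at 3.53% and 3.62% in ESCs, 4.78% and 4.51% in pESCs, 17.9% and 16.3% in E9.5 PGCs and 9.65% to 12.7% in the other 6 libraries. Its introns were at 13.3% and 9.07% in ESCs, 15.4% and 13.2% in pESCs, 39.4% and 41.4% in E9.5 PGCs, 26.4% and 30.02% in E12.5 PGCs, 29.7% and 22.0% in ESC-PGCLCs, with 27.1% and 27.7% in pESC-PGCLCs. The 3′ UTR was at 36.4% and 17.4% in ESCs, 33.7% and 26.7% in pESCs, 63.9% and 61.3% in E9.5 PGCs, 44.1% and 41.2% in E12.5 PGCs, 52.4% and 55.2% in ESC-PGCLCs, with 42.6% and 46.1% in pESC-PGCLCs. E9.5 PGCs were the highest group in all 3 rows, and the E12.5 PGC and pESC-PGCLC libraries overlapped in each. Tfcp2l1, a factor downstream of LIF signalling, had exons at 22.2% and 17.1% in ESCs, 24.1% and 21.6% in pESCs, 43.4% and 45.7% in E9.5 PGCs, 23.4% and 27.8% in E12.5 PGCs, 33.2% and 38.4% in ESC-PGCLCs, with 30.5% and 33.5% in pESC-PGCLCs. Its introns were at 5.42% and 6.32% in ESCs, 5.34% and 5.96% in pESCs, 20.7% and 20.2% in E9.5 PGCs, 13.5% and 14.0% in E12.5 PGCs, 14.7% and 14.1% in ESC-PGCLCs, with 11.2% and 12.5% in pESC-PGCLCs. The E12.5 PGC libraries overlapped the pESC libraries in the exons of Tfcp2l1, which they did not in the exons of Zfp42, Pou5f1 or Klf2.

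The E9.5 PGC and ESC groups were compared first, to place the in vivo germ cells against naive stem cells. Of the 35 member rows, 18 were higher in E9.5 PGCs and none was lower, in 6 genes (Zfp42, Pou5f1, Esrrb, Klf2, Klf5 and Tfcp2l1). Over all features 42.1% were called higher. Among promoters, Zfp42 and Pou5f1 were called, 2 of 9 against 30.8% of all promoters. The Zfp42 promoter was 62.4 points higher (limma, log2 odds 5.80 ± 0.19 SE, adjusted p = 1.29e-07) and the Pou5f1 promoter 21.9 points higher (3.12 ± 0.20, adjusted p = 2.27e-06). The Klf2 3′ UTR was 58.8 points higher (6.13 ± 0.15, adjusted p = 1.02e-07). The median member row differed by 13.0 points, against 7.49 points for the median feature. The median feature itself was 1.85 log2 odds units higher in E9.5 PGCs, and relative to that shift 16 of the 35 member rows were higher and 19 lower. The Klf2 3′ UTR (4.28), the Zfp42 promoter (3.95), the Klf2 exons (3.14), the Klf2 introns (2.91) and the Zfp42 exons (2.54) lay furthest above it, and 10 member rows were still called higher. The Klf2 introns, at 23.1% and 70.0% in the E9.5 PGC libraries, were not among these 10 (limma, adjusted p = 0.132). Of the rows called, the Esrrb exons (-0.48) and Tfcp2l1 exons (-0.17) lay below it. The call for the Klf2 introns was lost without either ESC library or without E9.5 PGC replicate 2, where the difference ranged from 20.5 to 45.8 points.

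From E9.5 to E12.5, the interval in which germ cells lose methylation, 12 member rows fell and none rose, in the same 6 genes. Over all features 49.6% fell, so the share of member rows was below the background, and the median member row changed by -6.65 points against -11.5 points for the median feature. Both Zfp42 and Pou5f1 promoters fell, 2 of 9 against 32.2% of all promoters. The Zfp42 promoter fell by 33.7 points (limma, log2 odds -1.99 ± 0.12, adjusted p = 7.67e-05), and 2.74% of promoters had a larger fall. The Zfp42 exons fell by 25.1 points, the Klf2 3′ UTR fell by 23.5 points and the Esrrb 3′ UTR fell by 22.4 points. The Pou5f1 promoter fell by 10.1 points (-0.91 ± 0.14, adjusted p = 0.00143), close to the limit of 10, and without E12.5 PGC replicate 2 its difference was -9.02 points and the call was lost, as it was for the Pou5f1 exons and 5′ UTR (-9.33 and -9.48 points). Pou5f1 exons also lost it without E9.5 PGC replicate 1 (-9.59 points), and the Klf5 introns without E9.5 PGC replicate 2 or E12.5 PGC replicate 1 (-11.2 and -10.4 points). The median feature fell by 1.12 log2 odds units, and relative to it 7 of the 35 member rows were lower and 28 higher. Of the rows called, the Zfp42 promoter (-0.87) and exons (-0.63) were still called lower relative to that shift, whereas the Pou5f1 promoter (0.21), 5′ UTR (0.25) and exons (0.33) lay above it.

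What was left of the E9.5 level describes the same rows on a ratio scale. Rows entered by an E9.5 level of at least 10%, and that level is also the denominator, so shares under 100% are in part set by the choice of rows and are given with no test. The Zfp42 promoter kept 47.8% of its E9.5 PGC level at E12.5 and the Pou5f1 promoter 58.9%, where the median over the 7888 promoters that entered was 62.9%. The Klf2 3′ UTR kept 60.8%, against a median of 64.4% over 3′ UTRs, and the Zfp42 introns 84.8%, against 62.9% over introns. ESC-PGCLCs held 60.8% and pESC-PGCLCs 44.8% of the E9.5 level at the Zfp42 promoter, where the medians over promoters were 77.6% and 70.7%. For the Pou5f1 promoter the corresponding shares were 60.4% and 48.3%.

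**Figure D4:**
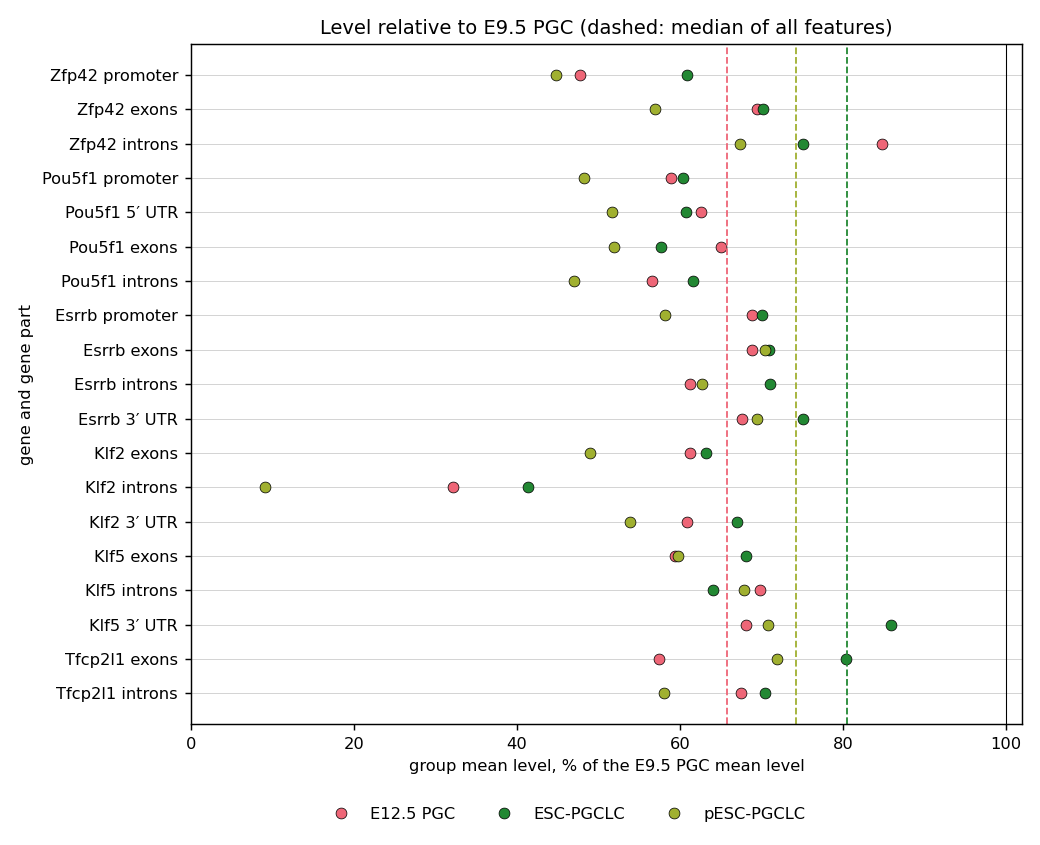
Group mean level as a percentage of the E9.5 PGC mean (horizontal axis) for the 19 member rows with an E9.5 level of at least 10% (vertical axis), for E12.5 PGCs and both PGCLC groups; dashed lines give the median over all features that entered by the same limit, in the same colours. E12.5 PGC points lie at 32.2% (Klf2 introns) to 84.8% (Zfp42 introns), on both sides of their median of 65.7%.

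PGCLCs were then compared with the in vivo germ cells; these comparisons share the E9.5 or E12.5 libraries. Against E9.5 PGCs, 10 member rows were lower in ESC-PGCLCs, and over all features 29.6% were. The Zfp42 promoter was the 1 promoter called, 25.3 points lower (limma, log2 odds -1.47 ± 0.12, adjusted p = 0.000848), where 21% of all promoters were called lower. The Pou5f1 promoter differed by -9.79 points (adjusted p = 0.00371), short of the 10 points required. In pESC-PGCLCs 14 member rows were lower than in E9.5 PGCs, and over all features 40.2% were. The promoters of Zfp42 (by 35.7 points, adjusted p = 0.000258) and Pou5f1 (by 12.8 points, adjusted p = 0.000725) were both called, against 27.3% of all promoters. Among the rows called were the Klf2 exons and 3′ UTR, at 16.6 and 19.8 points lower in ESC-PGCLCs and 23.0 and 27.6 points lower in pESC-PGCLCs. The median member row differed by -5.46 and -6.73 points in the 2 comparisons and the median feature by -4.99 and -7.48 points. In log2 odds the median feature was lower by 0.66 and 0.80 log2 odds units, and relative to it the Zfp42 promoter and exons and the Klf2 exons and 3′ UTR were still called lower in both. Calls on the Klf5 introns were lost in ESC-PGCLCs without E9.5 PGC replicate 2 (-13.5 points) and in pESC-PGCLCs without that library or either pESC-PGCLC library (-11.97 to -13.32 points). The call on the Tfcp2l1 exons in pESC-PGCLCs was lost without E9.5 PGC replicate 2 or pESC-PGCLC replicate 1 (-11.3 and -11.0 points).

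Against E12.5 PGCs few member rows differed. In ESC-PGCLCs 2 rows were higher, the Tfcp2l1 exons by 10.2 points (adjusted p = 0.0263) and the Klf5 3′ UTR by 11.1 points (adjusted p = 0.014), while over all features 22.2% were called higher by limma. Leaving out E12.5 PGC replicate 1 or ESC-PGCLC replicate 2 ended the call on the Tfcp2l1 exons (7.97 and 7.59 points), and leaving out E12.5 PGC replicate 2 or ESC-PGCLC replicate 2 ended that on the Klf5 3′ UTR (9.65 and 9.69 points). The Zfp42 promoter was 8.44 points higher in ESC-PGCLCs (adjusted p = 0.0198), below the 10 points required, and the Pou5f1 promoter differed by 0.356 points (adjusted p = 0.869). In pESC-PGCLCs 2 rows were lower than in E12.5 PGCs, the exons and introns of Zfp42, by 10.4 and 10.01 points (adjusted p = 0.0388 and 0.0361), where 0.287% of all features were called lower by limma. Both calls were lost without any 1 of the 4 libraries, with differences of -7.92 to -12.9 points for the exons and -8.76 to -11.3 points for the introns, although the libraries of the groups did not overlap. They were also lost with the replicate block (limma, adjusted p = 0.0664 for the exons and 0.0626 for the introns) and with all 12 libraries in the fit (limma, adjusted p = 0.525 and 0.367), and the call on the introns was lost after centring on the library median (limma, adjusted p = 0.0593). The Zfp42 promoter differed by -1.92 points between these groups (adjusted p = 0.538). In either direction 9740 of 137202 features were called in pESC-PGCLCs by limma, whereas 0 member rows were called higher. The median feature was above E12.5 PGCs by 0.455 log2 odds units in ESC-PGCLCs and by 0.312 in pESC-PGCLCs. Relative to it, 5 of the 35 member rows were higher and 30 lower in ESC-PGCLCs, with 1 higher and 34 lower in pESC-PGCLCs.

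Induction of PGCLCs was compared with the stem cells of origin. In the ESC series 15 member rows rose and none fell, and over all features 13.7% rose. In the pESC series 9 member rows rose and none fell, where 8.91% of all features rose. The median member row differed by 6.43 points in the ESC series and 3.98 points in the pESC series, and the median feature by 1.26 and 0.566 points. The Zfp42 promoter rose by 37.1 points from ESCs (log2 odds 4.33 ± 0.23, adjusted p = 7.98e-05) and by 27.4 points from pESCs (4.06 ± 0.23, adjusted p = 0.000168, limma). The Klf2 3′ UTR rose by 39.0 and 31.3 points and the Klf2 exons by 26.8 and 20.2 points. The Pou5f1 promoter rose by 12.1 points from ESCs (limma, adjusted p = 0.000616) and differed by 8.96 points from pESCs (adjusted p = 0.00197), so 2 of 9 promoters were called in the ESC series against 12.1% of all promoters and 1 of 9 in the pESC series against 8.55%. The median feature rose by 1.17 and 0.92 log2 odds units. Relative to it, 17 of the 35 member rows were higher and 18 lower in the ESC series. In the pESC series 15 were higher and 20 lower. After centring on the library median, 10 and 7 member rows were still called higher. Relative to the median feature, the Zfp42 promoter was still 3.16 and 3.15 units higher and the Klf2 3′ UTR 3.82 and 3.65 units higher. The Tfcp2l1 exons (-0.01) in the ESC series were level with the median feature.

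Several of the weaker calls on induction were lost when a library was left out, in fits with fewer samples. From ESCs, the rise of the Klf5 and Esrrb 3′ UTRs was no longer called without ESC replicate 2, which held the lower level of the pair, at 17.3 and 14.2 points, nor without either ESC-PGCLC library, at 19.9 to 28.2 points. The Tfcp2l1 exons lost their call without either ESC-PGCLC library (18.7 and 13.5 points), the Klf5 introns without ESC-PGCLC replicate 1 (10.8 points), the Pou5f1 introns without ESC-PGCLC replicate 2 (9.85 points) and the Klf2 introns without ESC replicate 1 or ESC-PGCLC replicate 2 (14.7 and 9.81 points). From pESCs, the Zfp42 exons (22.6 to 31.8 points) and the Klf5 introns (12 to 14.2 points) lost theirs without any 1 of the 4 libraries, and the Pou5f1 exons without pESC replicate 1 (9.99 points). The Zfp42 promoter and the Klf2 exons and 3′ UTR kept every call they had in these comparisons with each library left out in turn.

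The parthenogenetic origin was compared at both stages. Between pESCs and ESCs, 0 member rows and 0% of all features were called by limma, and 0 member rows had an unadjusted p below 0.05, where 2054 features did. The imprinted promoters used to check the pESC label, 33.4 to 43.4 points higher in pESCs, were thus not called either. This fit therefore cannot show that the members did not differ. The Zfp42 promoter differed by -0.735 points and the Pou5f1 promoter by 0.176 points. Between pESC-PGCLCs and ESC-PGCLCs, again 0 member rows were called by limma, and 0.0948% of all features were. An unadjusted p below 0.05 was found for 9 of the 35 member rows and for 19.4% of all features (26558), and the 9 rows were all lower in pESC-PGCLCs, among them the Zfp42 promoter (-10.4 points, adjusted p = 0.12), the Zfp42 exons (-10.9 points, adjusted p = 0.133) and the Klf2 3′ UTR (-7.81 points, adjusted p = 0.134). Both pESC-PGCLC libraries were below both ESC-PGCLC libraries in 17 of the 35 member rows and above them in 2. Over all features 42.2% were below and 9.18% above in the same way, so the member rows lay near that background. The change on induction was also compared between the origins, and 0 member rows were called by limma against 0.0365% of all features, with 0 member rows and 4053 features at an unadjusted p below 0.05. The rise of the Zfp42 promoter was 9.62 points smaller in the pESC series, but on the log2 odds scale the difference was -0.27 ± 0.33.

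Other genes of the network and of the LIF pathway were taken as a list of 29, of which 25 had a promoter row and 23 a promoter level in all 12 libraries. Between E9.5 PGCs and ESCs 7 of the 23 promoters were higher and none was lower, where 30.8% of all promoters were higher. From E9.5 to E12.5, 5 fell and none rose, where 32.2% of all promoters fell, with differences of -34.9 points for Zscan10, -34.8 for Dppa3, -31.6 for Dppa5a, -22.2 for Dppa2 and -21.6 for Tcl1. The median promoter of the list differed by -0.533 points in that interval and the median of all promoters by -1.49 points. Dppa3 (Stella) protects the maternal genome against demethylation in the zygote, Dppa2 is a nuclear factor of early embryos, Zscan10 a zinc finger factor and Tcl1 a cofactor of AKT kinase. These 5 stood between 67.1% and 83.0% in the E9.5 PGC libraries and at or below 6.90% in the 4 stem cell libraries. The Zfp42 promoter, at 63.8% and 65.4% in E9.5 PGCs, lay just under them. On induction from ESCs 6 rose, led by Dppa5a (55.9 points), Tcl1 (53.3), Zscan10 (52.8), Dppa2 (48.0) and Dppa3 (36.7), and 6 rose from pESCs, where 12.1% and 8.55% of all promoters rose. Against E12.5 PGCs, Zscan10 was higher in ESC-PGCLCs and no promoter of the list was called in pESC-PGCLCs, and none was called between the PGCLC groups or between the stem cell groups. Counting all gene parts, 33 of 90 rows were higher in E9.5 PGCs than in ESCs and 0 lower, and 26 of 92 were lower and 1 higher at E12.5 than at E9.5 by limma. Over all features 42.1% were higher in the first comparison and 49.6% lower in the second.

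**Figure D5:**
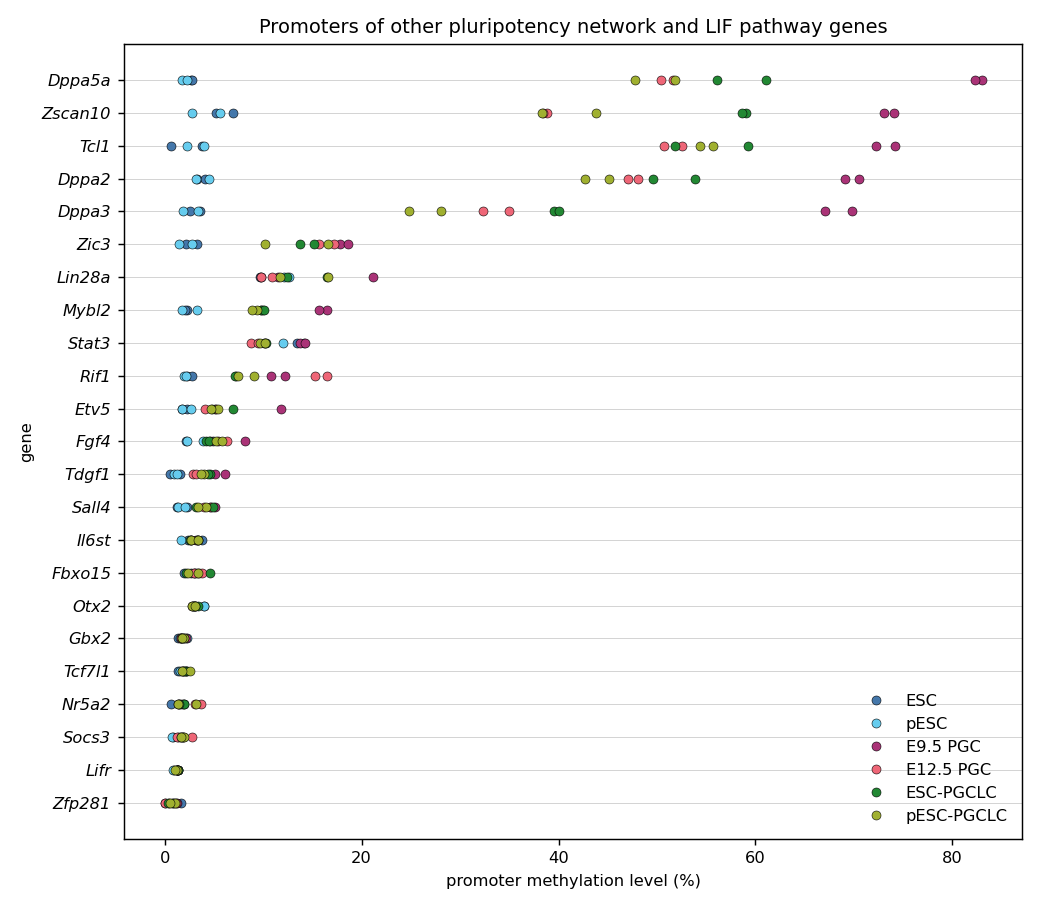
Promoter methylation level in percent (horizontal axis) of the 23 other pluripotency network and LIF pathway genes with a level in all 12 libraries (vertical axis, ordered by E9.5 PGC mean); each point is 1 library, coloured by group. Dppa5a, Zscan10, Tcl1, Dppa2 and Dppa3 reach 67.1% to 83.0% in E9.5 PGCs, and all other promoters stay at or below 21.2% in every library.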

How the data were processed

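RRBS levels of 12 mouse libraries were used. Per the study's methods the authors cut DNA with MspI, aligned bisulfite reads with Bismark 0.16.3 and Bowtie2, and treated identical reads at the same place as duplicates; the submitters' notes name mm10. Each deposited file gave the methylation level of a feature as a fraction, corrected by the authors for non-conversion, and levels are printed here as percent. Coverage and read counts behind the deposited fractions, the coverage minimum and the promoter bounds were not given in the sources used here, so the depth per level is unknown and features from few reads cannot be recognised. RRBS samples mainly CpG-rich fragments, so a level covers only the CpGs near MspI sites.

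Gene positions came from GENCODE M21. On chromosome 19, 100% of 492 islands exceeded a CpG ratio of 0.6 on GRCm38, against 3.66% after a shift of 100000 bases. Groups and replicate numbers came from the sample titles. Log2((level + 0.01)/(1 - level + 0.01)) was fitted with limma 3.58.1 (R 4.3.3, lmFit and eBayes) over features for which every fitted library had a level. The fits held ESC and pESC; the 8 PGC and PGCLC libraries; the 8 stem cell and PGCLC libraries; and, for E9.5 PGC minus ESC, all 12. P-values were adjusted by the Benjamini-Hochberg method. Scripts were tested on simulated data.

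Members, the list of 29 other genes and all tests were chosen with earlier results of these data known. All members are named; rows that were called, and promoters, are given library by library or by their range, and the 3 most similar promoters are named for members whose promoter group means span at least 10 points. Alternatives were an offset of 0.1, untransformed levels, other sets of libraries or features, adjustment over gene parts alone, centring on each library's median, no minimum difference, a replicate block, and leaving out each library. Same-numbered libraries were not taken as pairs, since no label says that they share a source.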

Additional observations from a re-analysis of the deposited data

How the results depend on the processing

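Centring each library on its median moved most of the counts of member rows called: from 12 to 2 for E12.5 against E9.5 PGCs, from 10 to 4 and from 14 to 4 for ESC-PGCLCs and pESC-PGCLCs against E9.5 PGCs, from 2 to 0 and from 2 to 1 for these against E12.5 PGCs, and from 18 to 10 for E9.5 PGCs against ESCs. It left 10 of 82 single calls with the opposite sign, as log2 odds relative to the median feature: for E12.5 against E9.5 PGCs, Pou5f1 exons (0.33), 5′ UTR (0.25) and promoter (0.21), Klf5 introns (0.35), Klf2 exons (0.037) and Esrrb introns (0.034); Tfcp2l1 exons in pESC-PGCLCs against E9.5 PGCs (0.052) and in ESC-PGCLCs against ESCs (-0.0080); and Esrrb exons (-0.48) and Tfcp2l1 exons (-0.17) in E9.5 PGCs against ESCs. Centring ended a further 34 calls without a change of sign, and 38 of the 82 were kept. On induction, the counts after centring went from 15 to 10 from ESCs and from 9 to 7 from pESCs. Without the minimum difference, 19 member rows were called for E12.5 against E9.5 PGCs and 17 for ESC-PGCLCs against E9.5 PGCs. Fitting all 12 libraries together gave 0 for both PGCLC groups against E12.5 PGCs, and for pESC-PGCLCs against ESC-PGCLCs an offset of 0.1 gave 1 and untransformed levels gave 2, all lower, where 0 were called. The causes were not tested.

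With a replicate block, the count for pESC-PGCLCs against E12.5 PGCs went from 2 to 0 and no other count changed. Deviations of replicate 1 from its group mean were correlated between groups over features. The correlation was 0.43 between ESCs and pESCs, 0.14 between E9.5 PGCs and ESC-PGCLCs and between -0.06 and 0.07 otherwise. In groups of 2 libraries, the deviations of replicate 2 mirror those of replicate 1 and add nothing. Leaving out each library in turn gave 9 to 13 rows for E12.5 against E9.5 PGCs, 10 to 12 for ESC-PGCLCs and 12 to 14 for pESC-PGCLCs against E9.5 PGCs, 1 to 2 for ESC-PGCLCs and 0 to 0 for pESC-PGCLCs against E12.5 PGCs, 10 to 14 for ESC-PGCLCs against ESCs, 6 to 7 for pESC-PGCLCs against pESCs, 17 to 18 for E9.5 PGCs against ESCs, and 0 in the other comparisons. No single call changed sign, and 21 of 82 were lost in at least 1 of these fits, in which the lone library is assumed to vary like the others. Groups of 2 libraries and unknown depth limit what small differences can show.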
